A study of Mus musculus with 6 samples.

Results

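The transcripts of 10 genes of the insulin-like growth factor (IGF) system were followed in 4T1 cells, a mouse mammary carcinoma line, after editing with guides named for FGFR2. The genes were picked by name from the 31017 rows of the count table: the binding proteins Igfbp2, Igfbp3, Igfbp4, Igfbp5, Igfbp6 and Igfbp7, the ligand gene Igf2, its receptor gene Igf2r, and the adaptors Irs1 and Irs2. All 3 control libraries (replicates 1 to 3) came from 4T1 cells nucleofected with Cas9 and control guides, and all 3 FGFR2 KO libraries (replicates 1 to 3) from 4T1 cells nucleofected with Cas9 and guides against FGFR2, a kinase receptor that binds fibroblast growth factors. Both groups grew in collagen I gels of either 1.2 or 2.4 mg per ml in medium with 10% serum, so every culture was exposed to the IGFs and binding proteins of the serum. Whether the edited cells were a pool or a clone, which collagen concentration a library came from and the age of the cultures are not stated in the sources used here.

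IGF1 and IGF2 are secreted peptides that signal through the IGF1 receptor and, in part, the insulin receptor. IGF binding proteins hold the ligands outside the cell, where they can keep them from the receptor, deliver them to it, or act without them. The IGF2 receptor, also the large mannose 6-phosphate receptor, has no kinase and carries IGF2 and newly made hydrolases to lysosomes. IRS adaptors are phosphorylated by the activated receptors and recruit PI3-kinase, which activates AKT. AKT in turn keeps FOXO transcription factors out of the nucleus. In the mammary gland this system is known for its part in ductal growth and in the death of milk-producing cells after weaning.

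The libraries held 15531790 to 20447719 counts. Fgfr2 itself stood at 96.8, 95.9 and 106 CPM (counts scaled to the TMM-corrected library total) in control replicates 1 to 3 and at 101, 81.1 and 95.2 CPM in the KO replicates 1 to 3 (edgeR adjusted p = 0.113). Its total level therefore does not test the label, since an edited transcript can still be counted. Epithelial markers were high, with a summed level over 7 genes of 4310 to 4420 CPM (control) and 3500 to 3590 CPM (KO). They did not all move together: in the edgeR test 5 fell, Cdh1 rose from 327 to 390 CPM and Cldn7 did not pass (109 and 112 CPM). Endothelial markers summed to at most 0.855 CPM, with Kdr, Tek and Emcn at 0 counts. The 6 leukocyte markers summed to 13.9 to 15.9 CPM (control) and 5.99 to 8.64 CPM (KO), nearly all of it Cd68, a lysosomal membrane protein abundant in macrophages, which fell from 13.7 to 5.97 CPM (log2 fold change -1.19, SE 0.13, edgeR adjusted p = 7.88e-10). Csf1r did not pass (0.920 and 1.22 CPM), Adgre1 and Cd3e had 0 counts, and Ptprc had a mean of 0.0215 CPM in the control libraries. The part of these markers in the members' changes was not tested.

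Of the 10 genes, 6 could be tested and 4 had 0 counts in every library. In the edgeR quasi-likelihood test, with a Benjamini-Hochberg adjusted p below 0.05, Igfbp7 and Irs2 rose in the KO libraries and Igfbp4, Igf2r and Irs1 fell, while Igfbp6 did not pass. Such calls were common: of 12158 tested genes 54.6% passed, 27.1% higher and 27.5% lower in the KO libraries. Values of the 2 groups did not overlap for 5 of the 6 tested members, against 59.5% of all tested genes. A call alone therefore says little about these genes, and the size of each change is given beside the share of all tested genes that changed as much. Tested against a minimum fold change of 1.5, which 7.46% of all tested genes passed, 1 member kept its call, Igfbp7 (glmTreat adjusted p = 0.022). Replicates are numbered in the labels with no statement of separate cultures, so each p reflects only how these libraries vary, which can be technical.

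Because 2 pairs of members moved in opposite directions, Igfbp4 against Igfbp7 and Irs1 against Irs2, the 250 bases before the start of these 4 genes are shown, 5′ to 3′ on the gene's strand (RefSeq, GRCm38.p6). They lie at chr11:99040994-99041243 (plus strand), chr5:77408046-77408295 (minus strand), chr1:82291440-82291689 (minus strand) and chr8:11008930-11009179 (minus strand). Each window ends at the RefSeq start, which is also the GENCODE M21 start used for the gene positions in Igfbp4 but lies 4 (Igfbp7), 23 (Irs1) and 471 bases (Irs2) upstream of it in the others. Capitals mark matches to the motifs named after the sequences. The reference is of the C57BL/6J strain, whereas 4T1 cells are of BALB/c origin.
Igfbp4: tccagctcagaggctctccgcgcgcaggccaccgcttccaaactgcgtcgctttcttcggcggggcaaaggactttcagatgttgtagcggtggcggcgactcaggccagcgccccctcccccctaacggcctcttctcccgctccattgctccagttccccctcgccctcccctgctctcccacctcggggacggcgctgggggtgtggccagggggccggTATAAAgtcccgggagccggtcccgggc
Igfbp7: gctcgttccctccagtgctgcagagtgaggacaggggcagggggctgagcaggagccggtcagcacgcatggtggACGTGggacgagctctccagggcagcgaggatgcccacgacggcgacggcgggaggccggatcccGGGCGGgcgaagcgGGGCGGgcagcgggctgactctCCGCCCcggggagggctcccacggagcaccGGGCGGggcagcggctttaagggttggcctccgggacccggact
Irs1: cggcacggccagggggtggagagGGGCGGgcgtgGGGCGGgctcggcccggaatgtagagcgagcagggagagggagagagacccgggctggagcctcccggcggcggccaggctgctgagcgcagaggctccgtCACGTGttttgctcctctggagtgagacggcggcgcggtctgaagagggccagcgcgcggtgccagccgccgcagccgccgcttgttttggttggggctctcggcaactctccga
Irs2: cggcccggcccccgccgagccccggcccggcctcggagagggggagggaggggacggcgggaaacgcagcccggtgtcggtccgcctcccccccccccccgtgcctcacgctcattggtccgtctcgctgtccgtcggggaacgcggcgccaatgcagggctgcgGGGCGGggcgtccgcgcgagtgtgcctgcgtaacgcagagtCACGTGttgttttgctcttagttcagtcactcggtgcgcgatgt

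The motifs searched on both strands were TGTTTAC (FOXO factors), CCGGAAG (ETS factors), TGANTCA (AP-1), ACGTG (the core bound by hypoxia-inducible factors), GGGCGG (the GC box), CACGTG (an E-box, which contains the ACGTG core) and TATAAA (the TATA box), the last 2 chosen after the sequences were seen. None of the 4 windows held the FOXO, ETS or AP-1 letters, which occur in 3.17%, 6.91% and 6.75% of 32851 promoters of the same length. Other forms of these sites were not searched for, so they may be present. The Irs1 and Irs2 windows each held CACGTG, 115 to 110 and 44 to 39 bases before the RefSeq start, a word found in 6.02% of promoters. Among the other members, Igf2r had the same word at 2 places in its window, and Igfbp2 had it in 1 of its 2 windows. The part of this word in the changes was not tested. Igfbp4 alone of the 4 held TATAAA, 28 to 23 bases before its start, which 12.4% of promoters hold on either strand, and it had no GC box. Igfbp7 had 4 GC boxes, Irs1 had 2 and Irs2 had 1, where 32.7% of promoters had any. The Igfbp7 window also held the ACGTG core, 175 to 171 bases before its RefSeq start, which 16.6% of promoters hold. In Irs1 and Irs2 this core lay only within CACGTG, and the Igfbp4 window had none. All 4 windows were rich in G and C, at 69.2% (Igfbp4), 74.0% (Igfbp7), 72.4% (Irs1) and 72.8% (Irs2), against a median of 52.4% over all promoters. The shares of promoters with each motif were not matched for this content, so they do not show whether a match is unusual for such windows. A match to these letters describes the window and is not evidence of binding.

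Igfbp4 was by far the most abundant member by CPM. It encodes a small binding protein that mainly keeps IGFs from their receptor until proteases cut it (chromosome 11, 99041244 to 99054392, plus strand, mm10). Its level was 934, 925 and 917 CPM in the control replicates 1 to 3, and 692, 728 and 734 CPM in the KO replicates 1 to 3. Every KO library lay below every control library, and the control values spanned less than the KO values. The means were 925 ± 8.43 and 718 ± 22.9 CPM (SD, n = 3 each), so the transcript fell to 77.6% of the control (log2 fold change -0.37, SE 0.033, edgeR adjusted p = 4.39e-12). This is a moderate change for these data, since 29.6% of tested genes had a log2 fold change at least as large in either direction. Per kilobase of exon (FPKM, here CPM divided by the length of all annotated exons in kilobases), Igfbp4 stood at 210 in the control libraries, and 1.76% of tested genes had a higher mean over all libraries.

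Igfbp7 changed the other way. It encodes a secreted relative of the IGF binding proteins that binds IGFs weakly and lacks the family's usual carboxy-terminal domain (chromosome 5, 77349240 to 77408041, minus strand). Its level was 88.8, 95.4 and 84.2 CPM in the control replicates 1 to 3, and 137, 159 and 146 CPM in the KO replicates 1 to 3. The groups did not overlap, and the lowest KO library was well above the highest control library. The transcript rose 1.64-fold (95% interval 1.53 to 1.76, log2 fold change 0.72, SE 0.050, edgeR adjusted p = 6.55e-15), from 89.5 ± 5.62 to 147 ± 11.0 CPM (SD, n = 3 each). It was the largest change among the tested members, and 11.7% of tested genes changed at least as much. Of its 1209 exon bases, 85 also lie in exons of Polr2b on the opposite strand.

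Igfbp6, a binding protein that prefers IGF2, was barely transcribed (chromosome 15, 102144362 to 102149511, plus strand). Control replicates 1 to 3 gave 18, 16 and 8 counts, and KO replicates 1 to 3 gave 18, 16 and 6. The groups overlapped throughout, and the lowest library of each group was replicate 3. The log2 fold change was -0.17 with a 95% interval of -1.05 to 0.71 (edgeR adjusted p = 0.76). That interval spans a fall to 0.481 and a rise to 1.64 of the control level, and these low counts are compatible with any change within it. The sign of the Igfbp6 change turned when control replicate 1 (0.04) or KO replicate 3 (0.20) was left out.

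Igfbp2, Igfbp3 and Igfbp5 had 0 counts in all 6 libraries, which allows a level of up to 0.0266 CPM over the libraries together (3 counts, counting error only). Igfbp2 is a binding protein often raised in carcinomas, Igfbp3 the main carrier of IGFs in blood, and Igfbp5 the member best known from the involuting mammary gland. Igfbp2 (chromosome 1, 72824503 to 72852474) and Igfbp5 (chromosome 1, 72857932 to 72874884) are neighbours that point towards each other across 5457 bases. Igfbp3 lies on chromosome 11 (7206086 to 7213923). Igfbp1, its fellow binding protein gene outside the members, also had 0 counts in every library. A count of 0 was frequent in the table, at 43.5% of all genes.

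The binding proteins that were present thus came down to 2 abundant transcripts, whose balance differed between the groups. Of the summed per-length level of the 6 Igfbp members, Igfbp4 made up 74.0%, 72.5% and 74.8% in the control replicates 1 to 3, and 57.8%, 55.5% and 57.9% in the KO replicates 1 to 3. Igfbp7 supplied nearly all the rest, with a mean of 26.0% ± 1.14 in the control and 42.7% ± 1.34 in the KO libraries (SD, n = 3 each), and Igfbp6 supplied 0.240% and 0.220%. The groups were fully separated for the Igfbp4 and Igfbp7 shares. The difference of 16.7 percentage points in the Igfbp7 share had an exact two-sided permutation p of 0.1, the smallest that 3 against 3 libraries can give (0.3 after Benjamini-Hochberg adjustment over 6 shares). Its size depends on the gene lengths, and the Igfbp7 share of summed CPM differed by 8.18 points.

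The summed level itself overlapped between the groups, at 286, 289 and 278 FPKM in the control replicates 1 to 3, and 271, 297 and 287 FPKM in the KO replicates 1 to 3 (exact two-sided permutation p = 0.9, 0.9 after adjustment over 2 sums). That near equality depends on the gene lengths, since Igfbp4 has 4416 exon bases and Igfbp7 1209. As a sum of CPM, where Igfbp4 weighs more, the level was 14.8% lower in the KO libraries, at 829 to 887 against 1000 to 1020 CPM.

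**Figure D1:**
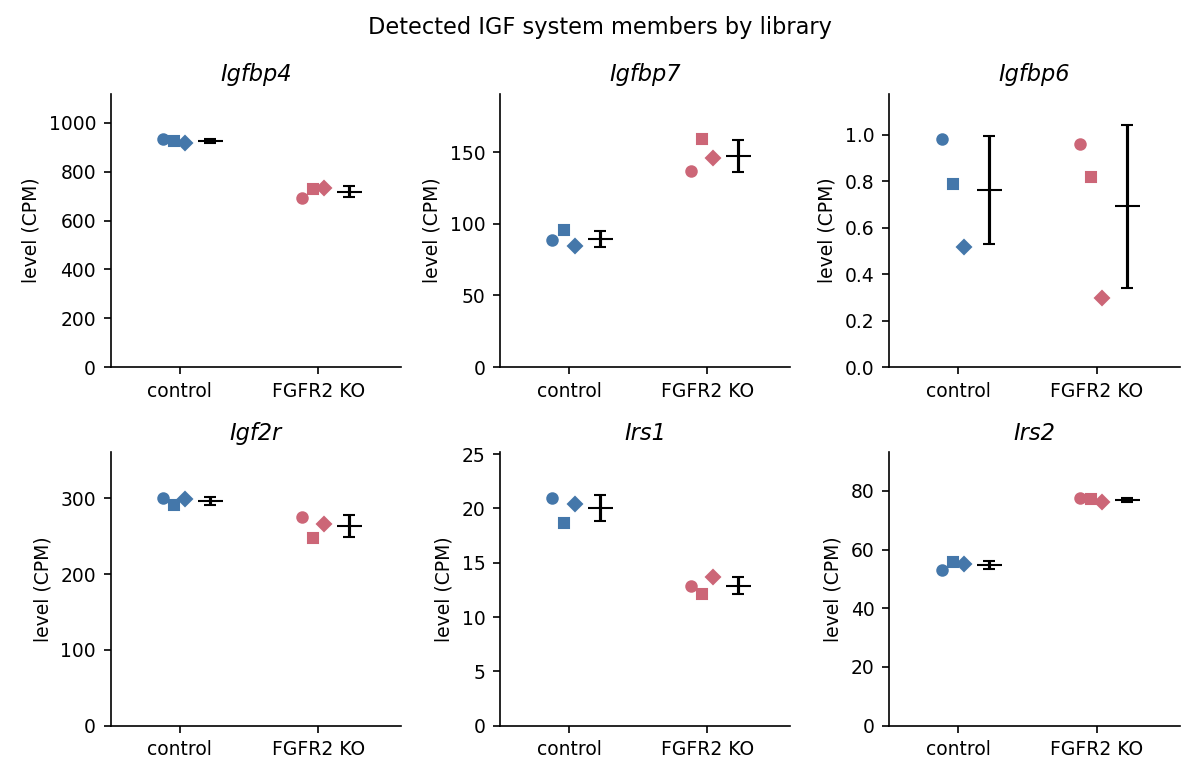
Levels in CPM (linear axis from 0) of the 6 detected members in the 3 control and 3 FGFR2 KO libraries, with circles, squares and diamonds for replicates 1, 2 and 3, and the mean and SD (n = 3) beside them. The groups are separate in every panel but Igfbp6, with Igfbp7 and Irs2 higher and Igfbp4, Igf2r and Irs1 lower in the KO libraries.

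Igf2 transcripts were not counted in any library (chromosome 7, 142650766 to 142666816, minus strand). Igf2 encodes the fetal growth factor of the family and is imprinted. Its 0 counts may cover only the exon bases that it does not share. On the same strand, 62.8% of its 5723 exon bases are shared with Gm49394, a gene model also at 0 counts. The treatment of reads that lie over 2 genes is not stated in the sources used here. H19, the noncoding transcript of the same imprinted locus, was low, falling from 3.12 ± 0.536 to 1.68 ± 0.311 CPM (SD, n = 3 each, log2 fold change -0.90, SE 0.25, edgeR adjusted p = 0.00244).

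Igf2r was the second most abundant member by CPM (chromosome 17, 12682406 to 12769664, minus strand). Its level was 301, 291 and 299 CPM in the control replicates 1 to 3, and 276, 248 and 266 CPM in the KO replicates 1 to 3. The KO libraries were lower by a small step, with no overlap. It fell to 88.8% of the control (log2 fold change -0.17, SE 0.039, edgeR adjusted p = 2.78e-04), a size that 57.6% of tested genes reached or passed. Airn, the antisense transcript that begins inside Igf2r, fell by 0.98 on the log2 scale, from a mean of 1.27 to 0.652 CPM (SE 0.37, edgeR adjusted p = 0.0235). The Airn call was lost with DESeq2 (adjusted p = 0.0942) and without control replicate 2 (edgeR adjusted p = 0.126), KO replicate 2 (0.0555) or KO replicate 3 (0.0943). No exon base of Igf2r lies in an annotated exon of Airn.

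The 2 adaptors moved apart. Irs1, an adaptor of both the IGF1 and insulin receptors (chromosome 1, 82233101 to 82291416, minus strand), stood at 21.0, 18.7 and 20.4 CPM in control replicates 1 to 3. In the KO replicates 1 to 3 it stood at 12.9, 12.1 and 13.7 CPM, all below the controls. It fell to 64.5% of the control (95% interval 56.5% to 73.7%, log2 fold change -0.63, SE 0.095, edgeR adjusted p = 5.60e-07). Of its 9144 exon bases, 30.9% lie opposite exons of Gm9747, which had 3 counts over all libraries. Without a stated strand setting the Irs1 level is uncertain to that extent.

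Irs2, which is known as a FOXO-induced adaptor and in mammary carcinoma cells for its link to invasion and glucose uptake (chromosome 8, 10984681 to 11008458, minus strand), stood at 53.1, 55.7 and 55.0 CPM in control replicates 1 to 3. In the KO replicates 1 to 3 it stood at 77.7, 77.1 and 76.3 CPM. The KO values were nearly the same in the 3 libraries and all above the controls. It rose 1.41-fold (95% interval 1.31 to 1.52, log2 fold change 0.50, SE 0.051, edgeR adjusted p = 1.61e-10). Changes of at least this size were seen in 19.9% of tested genes, and of at least the size of Irs1's in 14.2%.

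Within each library, Irs2 exceeded Irs1 per kilobase of exon by a ratio of 3.66, 4.30 and 3.89 in the control replicates 1 to 3, and of 8.72, 9.18 and 8.04 in the KO replicates 1 to 3. The ratio was thus higher in each KO library than in any control library, with a log2 difference of 1.13 (exact two-sided permutation p = 0.1, the smallest this design allows, and 0.2 after adjustment over 4 ratios). The difference does not depend on the gene lengths, which cancel within a gene. Together the 2 adaptors summed to 10.8 ± 0.122 FPKM in the control and 13.6 ± 0.0915 FPKM in the KO libraries (SD, n = 3 each, exact two-sided permutation p = 0.1, 0.2 after adjustment over 2 sums). The summed rise came from Irs2, the larger of the pair.

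**Figure D2:**
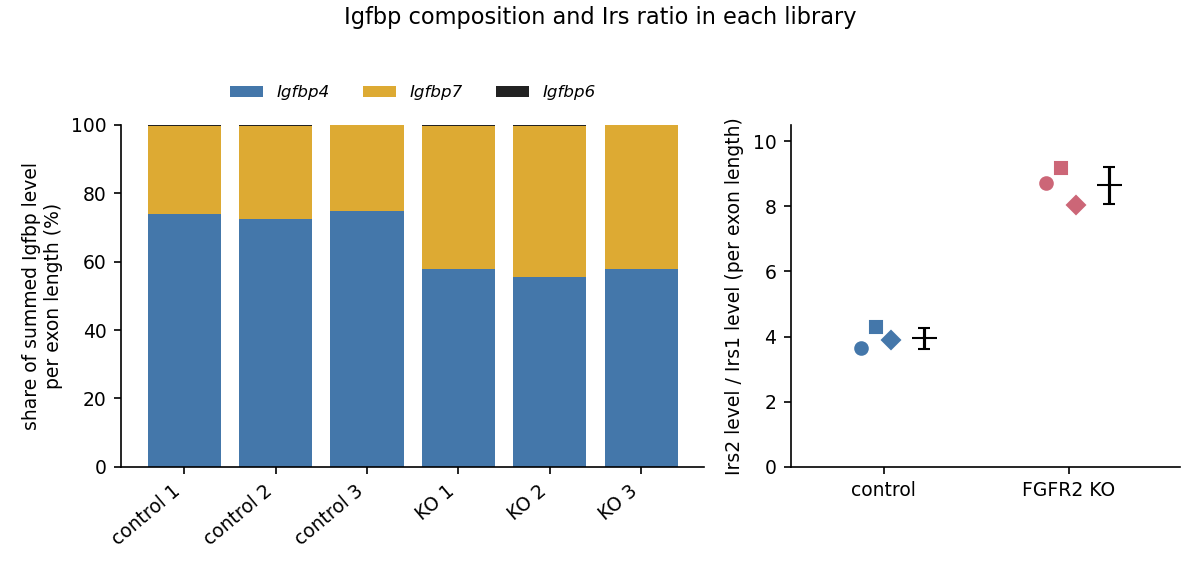
Left, the share (percent) of Igfbp4, Igfbp7 and Igfbp6 in the summed per-length level of the 6 Igfbp members, as stacked bars for each library. Right, the ratio of the Irs2 to the Irs1 level per exon length in each library (linear axis from 0, circles, squares and diamonds for replicates 1, 2 and 3, mean and SD, n = 3): the Igfbp7 share averages 26.0% in control and 42.7% in KO libraries, and the ratio lies between 3.66 and 4.30 in control and between 8.04 and 9.18 in KO libraries.

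Ordered by level per length in the control libraries, the detected members ran from Igfbp4 (210 ± 1.91 FPKM) and Igfbp7 (74.0 ± 4.65) through Igf2r (31.9 ± 0.567), Irs2 (8.64 ± 0.214) and Irs1 (2.19 ± 0.127) to Igfbp6 (0.685 ± 0.210; SD, n = 3 each). The KO libraries gave the same order, at 163, 122, 28.3, 12.2, 1.41 and 0.622 FPKM. In both groups each neighbour in this order differed from the next by more than their SDs. The signalling receptors Igf1r and Insr, which are not members, stood at 7.80 and 7.02 FPKM in the control libraries, near Irs2 and below Igf2r.

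The other genes of the system were taken from 7 lists of 89 genes. Of 73 tested, 22 rose, 26 fell and 25 did not pass, where 27.1% of all 12158 tested genes rose and 27.5% fell. The same shares stand beside the counts of each list below. The median log2 fold change was 0.02 beside -0.01 over all tested genes. Among ligands, Igf1 appeared only as a trace in the KO libraries, with 0 counts in each control library and 11, 13 and 17 in the KO replicates 1 to 3. Pooled over the group that is 0.700 CPM, at least 12.6-fold higher than the floor of 3 counts over the control group, and the edgeR adjusted p was 7.03e-06. Fibroblasts are a common source of Igf1. Their 8 markers summed to 36.3 to 38.2 CPM (control) and 39.7 to 45.4 CPM (KO), nearly all of it Pdgfra (36.4 and 39.4 CPM), with Col3a1, Lum and Thy1 at 0 counts. Dcn went from a mean of 0.0363 to 0.564 CPM and Pdgfrb from 0.0430 to 0.442 CPM, both too low to be tested. Col1a1 was tested and rose from 0.437 to 1.24 CPM (edgeR adjusted p = 0.00338), while Pdgfra did not pass. The part of such markers in the Igf1 counts was not tested. Ins1 and Ins2 had 0 counts.

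Igf1r, the kinase receptor of both IGFs, stood at 132, 131 and 130 CPM in the control replicates 1 to 3, and at 115, 110 and 111 CPM in the KO replicates 1 to 3. It fell by 0.22 on the log2 scale (SE 0.042, edgeR adjusted p = 2.89e-05). The insulin receptor Insr was lower by a similar step, from 94.5, 90.8 and 104 CPM to 88.4, 81.8 and 83.4 CPM (log2 fold change -0.19, SE 0.050, edgeR adjusted p = 0.00166). Per length Igf1r exceeded Insr by a ratio of 1.11 ± 0.0841 in the control and 1.09 ± 0.0161 in the KO libraries (SD, n = 3 each, exact two-sided permutation p = 0.8, also after adjustment over 4 ratios). Bulk levels cannot tell fewer cells that express a gene from less RNA per cell.

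Among 8 genes that cut IGF binding proteins or control that cutting, 5 were tested, 2 rose and 2 fell. Stc1 is a stanniocalcin that inhibits the pappalysins, proteases that cleave IGF binding proteins. It fell from 24.5, 23.0 and 23.9 CPM to 9.84, 7.35 and 9.77 CPM (log2 fold change -1.40, SE 0.10, edgeR adjusted p = 2.70e-14). Its relative Stc2 fell from 4.17 to 2.57 CPM. The pappalysins were hardly counted, with Pappa at 0 counts and Pappa2 at a mean of 0.204 (control) and 0.518 CPM (KO), too low to be tested. The metalloproteinase Adam12 rose from 16.2, 15.5 and 18.8 CPM to 34.3, 33.9 and 31.0 CPM (log2 fold change 0.98, SE 0.083, edgeR adjusted p = 9.75e-13), and Adamts1 rose by 0.51. Htra1, a serine protease that cleaves IGFBP5, was abundant and did not pass (323 and 327 CPM, edgeR adjusted p = 0.691). The list's median log2 fold change was 0.02.

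**Figure D3:**
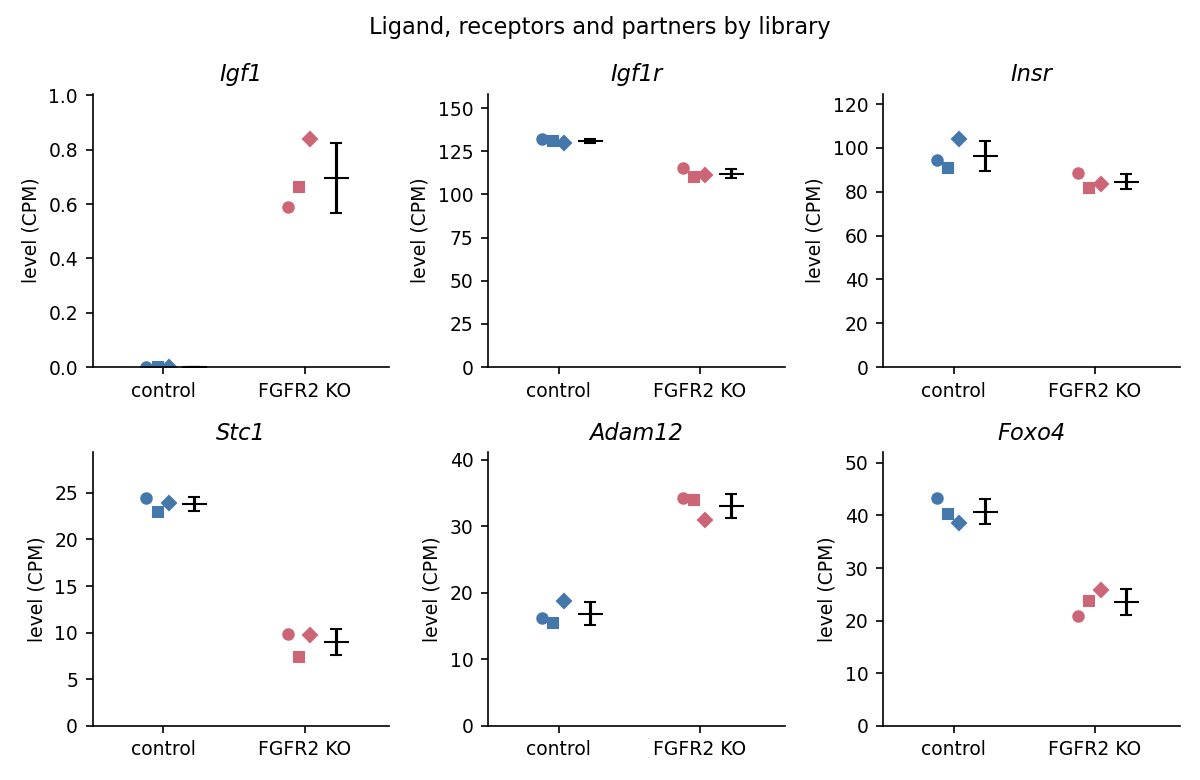
Levels in CPM (linear axis from 0) of the ligand Igf1, the receptors Igf1r and Insr, the pappalysin inhibitor Stc1, the protease Adam12 and the transcription factor Foxo4 in the 3 control and 3 FGFR2 KO libraries, with symbols as above for replicates 1 to 3 and the mean and SD (n = 3). Igf1 is at 0 in each control library, and the groups are separate in all 6 panels.

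Of 4 tested genes in the list of imprinted neighbours and RNA regulators of Igf2 and Igf2r, 3 fell, with a list median of -0.57. Besides H19 and Airn this was Igf2bp2, an RNA-binding protein that promotes translation of growth factor transcripts, which fell by 0.24 from 165 to 140 CPM. Igf2bp1 did not pass (25.3 and 25.5 CPM).

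Below the adaptors, all 27 listed genes of the PI3-kinase, AKT and mTOR arm were tested. In this arm 9 rose, 11 fell and 7 did not pass, and the median log2 fold change was -0.04. Of the regulatory subunits of PI3-kinase that dock on IRS proteins, Pik3r3 rose from 7.03, 6.40 and 4.64 CPM to 9.62, 12.3 and 13.3 CPM (log2 fold change 0.95, SE 0.14, edgeR adjusted p = 5.71e-07). Pik3r2 fell by 0.34 from 119 to 94.3 CPM, and Pik3r1 had a log2 fold change of 0.08 (edgeR adjusted p = 0.173). The lipid phosphatase Inppl1 and the kinase Gsk3b rose by 0.26 and 0.24. Akt1 (484 and 508 CPM) did not pass. The FOXO factor Foxo4 fell from 43.4, 40.2 and 38.6 CPM to 20.9, 23.7 and 25.9 CPM (log2 fold change -0.79, SE 0.075, edgeR adjusted p = 2.25e-11). Among the other listed FOXO factors, Foxo3 rose by 0.16 from 47.9 to 53.6 CPM (edgeR adjusted p = 0.0299) and Foxo1 did not pass (24.0 and 25.1 CPM).

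Of 15 tested adaptors and brakes of receptor signalling, 4 rose and 3 fell (median 0.03). The phosphatase Ptpn11, a docking partner of IRS and FGF receptor complexes, rose by 0.33 from 220 to 278 CPM, and Socs3, an inhibitor of IRS signalling, by 0.22. Grb14, an inhibitor of the insulin receptor, rose by 1.43 from 0.680 to 1.80 CPM. The adaptors Dok1, Shc1 and Sh2b1 fell by 0.59, 0.27 and 0.26.

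Irs2 is itself a target of FOXO factors. Of 11 tested other FOXO targets, 3 rose, 4 fell and 4 did not pass, with a median of 0.02. Sod2, Cited2 and Cat rose by 0.57, 0.45 and 0.28. The death gene Bcl2l11, the cyclin Ccng2 and the stress gene Gadd45a fell by 0.74, 0.59 and 0.56.

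Of 8 genes for mannose 6-phosphate tagging and sorting, the lysosomal side of Igf2r, 3 rose and 1 fell (median 0.10). Gnptab, the enzyme subunit that starts the tag, rose by 0.36 and Nagpa, which uncovers it, by 0.47, while the adaptor Gga3 fell by 0.24. M6pr, the smaller receptor for the same tag, rose by 0.12 (edgeR adjusted p = 0.0257) while Igf2r fell. Upper quartile scaling ended the M6pr call (adjusted p = 0.0732), as did leaving out control replicate 2 (0.133), control replicate 3 (0.0828) or KO replicate 2 (0.112).

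**Figure D4:**
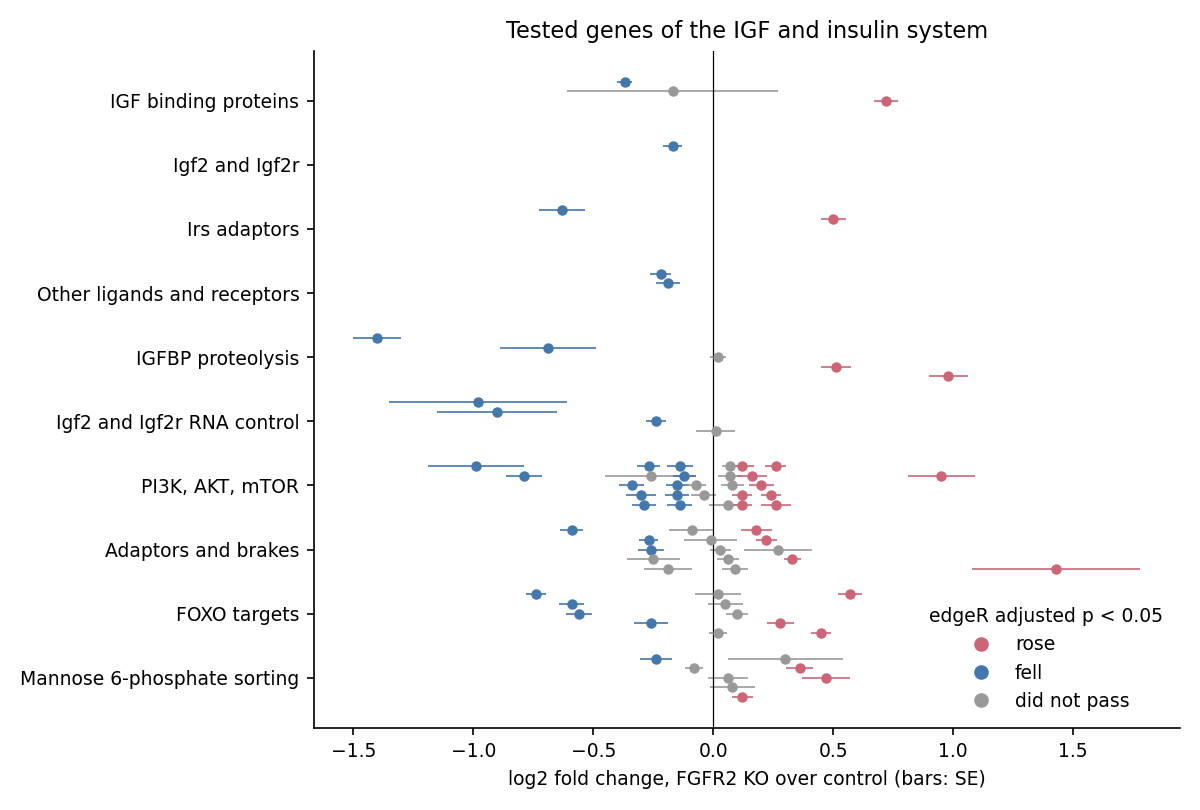
Log2 fold changes of FGFR2 KO over control (horizontal axis, bars show SE) for the tested genes of each list, in rows by role, red where the gene rose, blue where it fell and grey where it did not pass the edgeR test. Igf1 is left out because all control counts are 0. Most points lie within 0.5 of 0, and each of the larger lists holds red, blue and grey points.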

How the data were processed

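Poly(A) RNA libraries of 4T1 cells (3 control, 3 FGFR2 KO) were compared. The deposited values are raw read counts per gene, 1 column per library. Per the submitters' processing notes, FastQC 0.11.9, STAR 2.7.9a, featureCounts and R 4.1.1 were used, with the builds hg38 and mm10 named without a role. The annotation counted, the strand setting and the treatment of reads over several places or genes are not stated in those sources, and 0 columns were left unassigned. Per the labels' protocols the libraries were made with a stranded kit.

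Counts were tested with edgeR 4.0.16 in R 4.3.3: filterByExpr (minimum count 10, total 15), TMM scaling, a model with the group only, and the quasi-likelihood F-test, adjusted by Benjamini-Hochberg over 12158 genes, with a prior count of 0.125. SE is the log2 fold change over the root of F, and intervals have 95% confidence. CPM use TMM-scaled totals. FPKM divide them by the exon union length in GENCODE M21 (mm10), which also gave positions, with a length for 99.2% of tested genes. RefSeq (GRCm38.p6) gave promoters for all 10 members. The intervals of fold changes reflect the spread between libraries, whereas floors cover counting error only. Replicates of a group differed by more than counting noise (chi-square per degree of freedom 2.28 to 4.69).

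The members and lists were chosen with earlier results of these data known. Named beside the members were Igf1, Igf1r, Insr, Igfbp1 and, per list and direction, up to 3 called genes with the smallest adjusted p, of which 1 is not reported here. Foxo3, genes named as not passing, untested genes and single markers were picked with their values in view. Alternatives were DESeq2 1.42.0, limma-voom (limma 3.58.1), RLE and upper quartile scaling, other filters, a minimum fold change of 1.5, a replicate block, and each library left out.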

Additional observations from a re-analysis of the deposited data

How the results depend on the processing

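The calls of Igfbp4, Igfbp7, Igf2r, Irs1 and Irs2 kept direction and threshold under every alternative run except the minimum fold change of 1.5. There 1 member rose and 0 fell, and Igfbp4 (-0.37), Igf2r (-0.17), Irs1 (-0.63) and Irs2 (0.50) lost their calls (glmTreat adjusted p = 1 each). The pathway lists then had 4 genes up and 3 down, and all genes 402 up and 505 down. Igfbp6, never called, changed sign without control replicate 1 (0.04) and without KO replicate 3 (0.20), over a range of -0.47 to 0.20 when each library was left out, and it was not tested with a filter at a mean of 5 CPM. Its share of the Igfbp sum differed by 0.00578 percentage points as CPM, and by 0.0140 without control replicate 1 and 0.0434 without KO replicate 3 (range -0.0700 to 0.0434 over the libraries left out), against -0.0202 with all libraries. As CPM the shares of Igfbp4 and Igfbp7 differed by -8.19 and 8.18 percentage points. The length choice for the summed Igfbp level was added after seeing the data: with the longest transcript the sum changed by -1.95%, with CPM by -14.8%.

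Replicate numbers did not pair the libraries, with correlations of -0.029, -0.003 and -0.064 between same-numbered deviations. With the replicate number as a block, 2 members rose and 3 fell, as without it, and 3206 genes rose and 3237 fell.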
